A study of Mus musculus with 3 samples.

Results

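The fibroblast growth factor (FGF) system is described here through 35 mouse genes, chosen by gene name, with earlier results of these data known: 21 FGF genes, 5 receptor genes, and 9 genes that respond to the signal or restrain it. All 35 were on the array, among 30397 named genes and transcripts, with 57 probes in all. Of these probes 38, from 28 of the 35 genes, were bright enough to test and had a value on every array. Gene expression was compared on day 10 between 2 kinds of mouse embryoid bodies, floating aggregates in which embryonic stem cells differentiate into many cell types once the cytokine LIF is withheld. The first kind, labelled Dido3deltaCT+HADido3CT and called mutant+CT here, makes a Dido3 protein without its C-terminal region and overexpresses that missing region, which exon 16 encodes. The other kind was the wild-type control. Both were grown for 10 days in suspension without LIF. Each of 3 Agilent arrays of 2 colours carried 1 mutant+CT and 1 wild-type RNA, and the labels call the 3 pairs biological replicates. Mutant+CT was labelled with Cy3 (green) on replicates 1 and 3 and with Cy5 (red) on replicate 2. How many lines or clones the embryoid bodies came from, and what drives expression of the added region, is not given in the sources used here. No group carried the truncation alone or the added region alone, so their effects cannot be told apart.

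FGFs are secreted proteins that bind receptor tyrosine kinases together with heparan sulfate and switch on the Ras to ERK kinase cascade. ERK signalling in turn raises ETS transcription factors such as Etv4 and Etv5 and inhibitors such as the Sprouty proteins and Dusp6, which dampen the cascade. In mouse embryonic stem cells Fgf4 is the main ligand of this kind and prepares cells to leave the undifferentiated state, while in the embryo Fgf3, Fgf8, Fgf15 and Fgf17 act in the developing brain and Fgf10 in mesenchyme.

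In brightness and saturation the scanned values were similar on the 3 arrays. Between 69.0% and 78.49% of spots were well above background in the mutant+CT channel and between 68.15% and 76.42% in the wild-type channel. The red channel had the higher share on each array. Red against green, the shares were 74.31% and 69.0% on replicate 1, 78.49% and 68.15% on replicate 2, and 76.42% and 73.93% on replicate 3. On each array 0 spots were saturated. Over all genes tested, the ratios of mutant+CT over wild type had a Pearson correlation of 0.18 between replicates 1 and 2. It was 0.54 between replicates 1 and 3 and 0.38 between replicates 2 and 3. Of the 20390 genes tested, 0 had an adjusted p under 0.05 in limma with Benjamini-Hochberg adjustment, 298 had one under 0.1, and 1844 were higher and 1367 lower in mutant+CT at an unadjusted p under 0.05. The targeted gene, Dido1, had ratios of opposite sign at its 4 probes. The one with the highest ratio, at 3.53 ± 0.12 (SD, n = 3), passed over all probes with an adjusted p of 0.0435, and the one with the lowest had -2.39 ± 1.29. In that limma fit by probe, 115 of 26318 probes (0.437%) had an adjusted p under 0.05. The place of these probes relative to exon 16 was not determined, so they do not check the labels. Markers fixed for naive stem cells, neural progenitors, visceral endoderm, epithelium and endothelium were well above background in at least 1 condition for all listed genes (14, 12, 8, 7 and 7 of them), as were 10 of 10 mesenchyme markers. The material thus held transcripts of several lineages.

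Every ratio below is log2 of mutant+CT over wild type, given for replicates 1, 2 and 3 in that order or as a mean ± SD over the 3 arrays, so that -1 stands for a level lowered 2-fold. Every level is the log2 intensity of 1 probe in 1 condition, which may be compared between conditions but not between genes.

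Among the 28 genes tested, Fgf15 and Fgf3 had the lowest mean ratios and Fgf4 and Etv5 the highest, and 0 passed an adjusted p of 0.05 (background over all genes 0%). At an adjusted p under 0.1, 1 of the 28 was lower, Fgf3 (background 0.461%), and 0 were higher (background 1%). At an unadjusted p under 0.05, 3 were lower, Fgf3, Fgf13 and Fgf15, which is 10.7% of the 28 (background 6.7%), and 3 were higher, Etv5, Fgf1 and Fgf4, also 10.7% (background 9.04%). Counted by size alone, 2 of the 28, Fgf3 and Fgf15, were at least 2-fold lower on every array, or 7.14% (background 0.991%). None of the 28 was at least 2-fold higher on every array (background 1.9%). By direction alone, 6 genes were higher on every array (Etv5, Fgf1, Fgf4, Fgf7, Fgf23 and Spred2) and 6 lower (Fgf3, Fgf8, Fgf10, Fgf13, Fgf15 and Fgf17), each 21.4% of the 28, against backgrounds of 20.3% and 17.4%. The 1 lower gene at an adjusted p under 0.1, or 3.57%, and the 2 lower by size are counts too small to read against their backgrounds, and the shares by direction alone lay within a few percentage points of theirs. The p-values measure the spread between the 3 biological replicates.

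**Figure D1:**
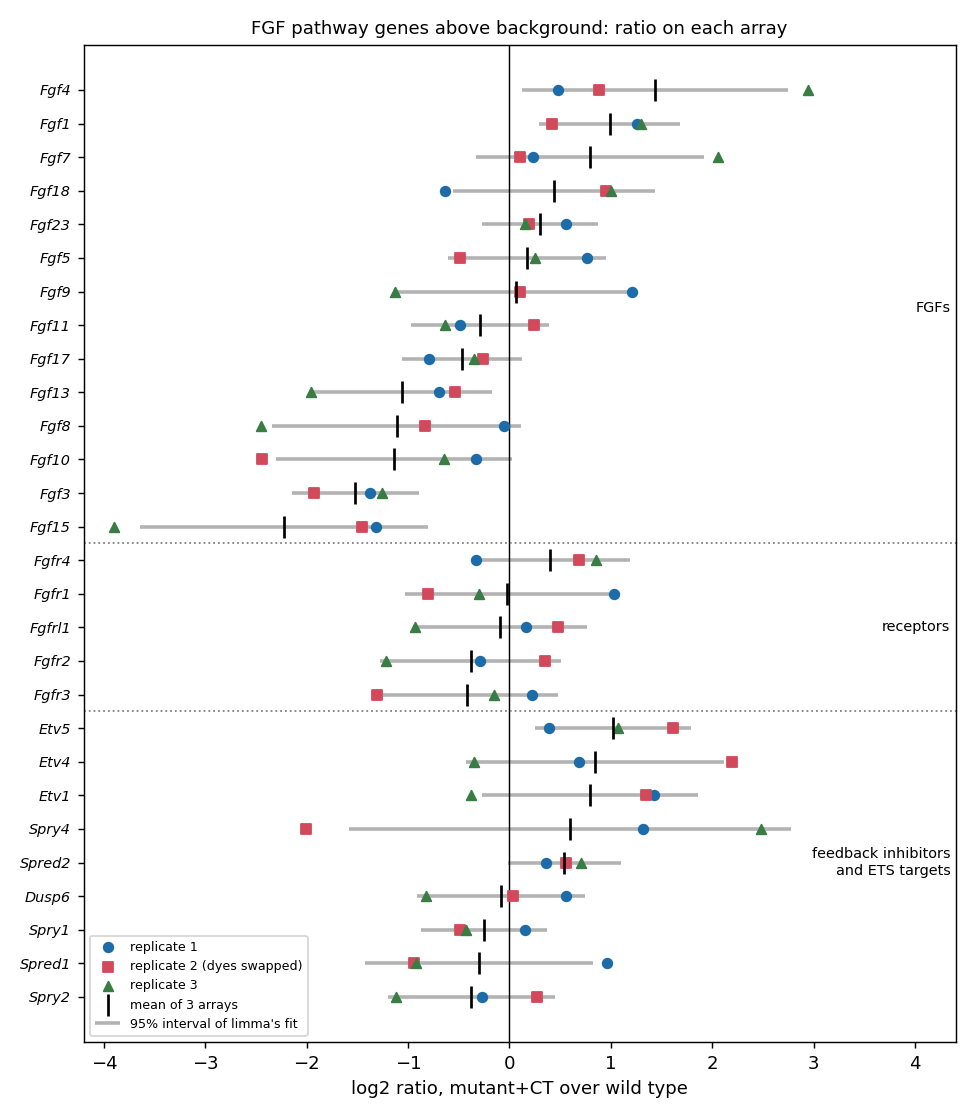
Log2 ratio of mutant+CT over wild type (x axis) for each of the 28 genes above background (y axis), with a marker per array, a tick for the mean of 3 arrays and a bar for the 95% interval of limma's fit. Fgf15 and Fgf3 lie below -1 on every array, whereas the receptors straddle 0.

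Grouped by role, the FGF genes spread widest. The 14 FGFs tested had mean ratios from -2.22 to 1.44 with a median of -0.12, the 5 receptors from -0.41 to 0.40 with a median of -0.09, and the 9 feedback and target genes from -0.37 to 1.02 with a median of 0.54. The median over all genes was -0.003. The SD across the 28 genes was 0.77, 1.10 and 1.46 on replicates 1, 2 and 3, against 0.77, 0.74 and 1.02 across all genes. The median of the feedback and target genes was 0.56, 0.27 and -0.38 on replicates 1, 2 and 3. Over pairs of arrays it was 0.23 without replicate 1, 0.17 without replicate 2 and 0.29 without replicate 3. The median of 0.54 is the ratio of 1 gene, Spred2. Within the group, the 3 ETS factors had a median of 0.84 and the 6 inhibitors one of -0.17. With a dye term in the fit, the median of the whole group was -0.052. These medians have no test.

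The FGF genes with the largest differences in both directions are neighbours on chromosome 7. Fgf3, Fgf4 and Fgf15 have probes on the plus strand at chr7:152026667-152028526, chr7:152051089-152051148 and chr7:152086371-152086430 (mm9, from the scanner files). Relative to the Fgf4 probe, the Fgf3 probe thus lies at -24.42 kb and the Fgf15 probe at 35.28 kb. The Fgf3 probe crosses an exon junction, since its coordinates span more than its 60 bases, and is printed whole. Of the other probes the first 30 of 60 bases are printed, and their place in an exon or UTR was not determined. The letters are shown because the ratios of this cluster rest on 1 probe a gene.
Fgf3 probe A_51_P205028: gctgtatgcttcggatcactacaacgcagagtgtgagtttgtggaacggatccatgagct
Fgf4 probe A_66_P117201: acagccccatggactgatgggaatgattgg
Fgf15 probe A_51_P440985: cccttttccacttataaatgtcagatggaa

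Fgf15, the mouse counterpart of human FGF19, is made in the embryonic neural tube and later in the gut, and it restrains bile acid synthesis. Its level was 10.98, 8.06 and 9.10 in mutant+CT and 12.29, 9.51 and 13.00 in wild type on replicates 1, 2 and 3. Mutant+CT was lower within each array, but the groups overlapped, because the level differed between replicates in both. The ratios were -1.32, -1.45 and -3.90, with a mean of -2.22 ± 1.46 (SD, n = 3), or 4.67-fold lower. In limma the 95% interval ran from -3.65 to -0.80, with an unadjusted p of 0.0098 and an adjusted p of 0.172 over all genes. Replicate 3 held the lowest ratio by far, and without it the mean was -1.38.

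Neural progenitor markers, a list of 12 genes of which 12 were tested, were also lower and lowest on replicate 3. Their median ratio was -2.36, -1.64 and -3.20 on replicates 1, 2 and 3, with 9 of 12 lower on every array, and each of the 12 had a mean ratio of -0.19 or lower. In these bulk samples fewer cells of a type and less RNA per cell cannot be told apart, and the part of neural cell number in the Fgf15 ratio was not tested.

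Fgf3, a ligand of the FGF7 subfamily with roles in the inner ear and hindbrain, had the smallest p of the 28 genes. Its level was 8.01, 6.34 and 6.48 in mutant+CT and 9.38, 8.26 and 7.74 in wild type. Mutant+CT was lower within each array, and its highest value, from replicate 1, lay between the wild-type values, so the groups overlapped. The ratios were -1.38, -1.93 and -1.26, a mean of -1.52 ± 0.36 (SD, n = 3), or 2.87-fold lower. Limma gave an interval of -2.14 to -0.90, an unadjusted p of 0.0014, which ranked 281 of the 20390 genes, and an adjusted p of 0.0985. The dyes of replicate 2 were the reverse of the other arrays, and its ratio had the same sign. Mutant+CT was dim on replicates 2 and 3. The ratio was -2.77 on Agilent's background-subtracted signals, with an adjusted p of 0.0514, and -1.20 without background subtraction, with 0.158.

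Fgf4, between them on the chromosome, differed in the other direction. Its level was 12.61, 11.90 and 12.89 in mutant+CT and 12.13, 11.01 and 9.95 in wild type. The mutant+CT levels lay within a narrower band, whereas wild type was lowest on replicate 3, and the groups overlapped through wild-type replicate 1. The ratios were 0.48, 0.88 and 2.94, a mean of 1.44 ± 1.32 (SD, n = 3), or 2.70-fold higher. In limma the interval ran from 0.13 to 2.74, with an unadjusted p of 0.037 and an adjusted p of 0.279. The mean was 0.68 without replicate 3. Naive pluripotency markers, all 14 of them tested, had medians of 0.83, 0.96 and 2.34 on the 3 arrays and 11 were higher on every array, so they too were highest on replicate 3. Their part in the Fgf4 ratio was not tested.

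**Figure D2:**
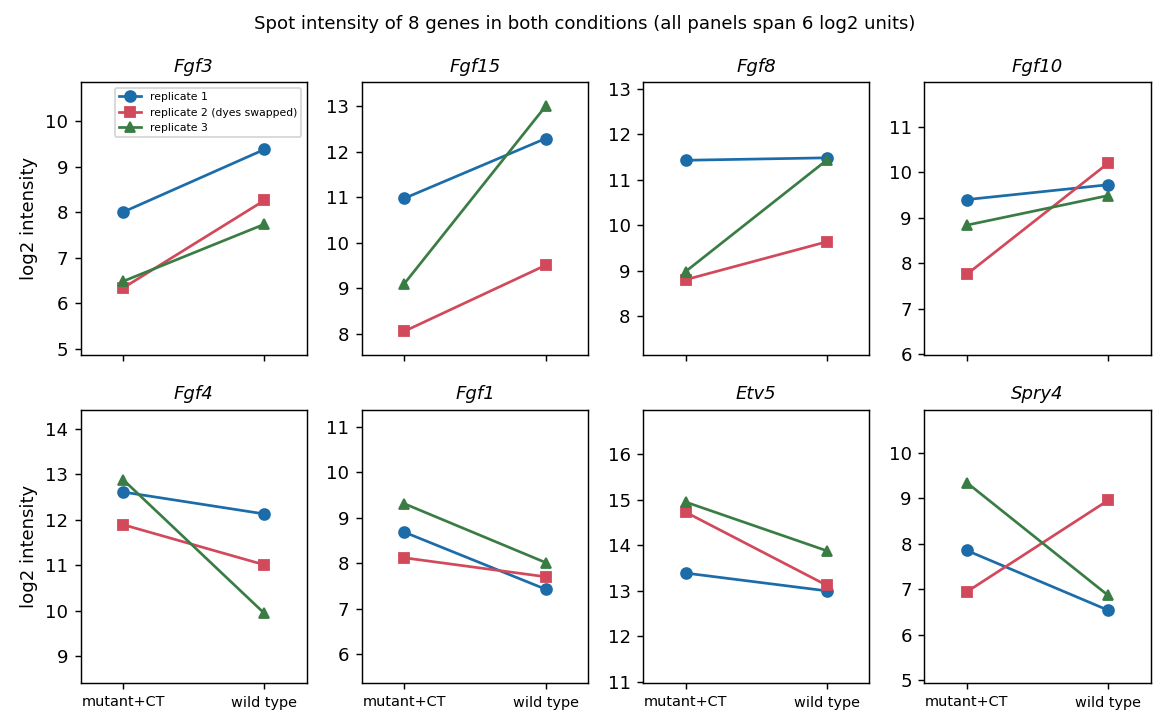
Log2 spot intensity (y axis) in mutant+CT and wild type (x axis) for 8 genes, with a line for each of the 3 arrays; all panels span the same number of log2 units. The 3 lines of Fgf3 and Fgf15 run lower in mutant+CT and those of Fgf4, Fgf1 and Etv5 higher, whereas replicate 2 slopes against the others for Spry4.

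Around the cluster, the next gene after Fgf15 with a large ratio was Ccnd1, the cyclin D1 gene, whose probe lies 65.11 kb after that of Fgf4. It had ratios of -1.005, -0.83 and -3.21, a mean of -1.68 ± 1.33 (SD, n = 3) and an adjusted p of 0.228 in limma. Between Fgf15 and Ccnd1, a pair of probes for LTO1, of which the files name 1 Oraov1, its older symbol, had -0.34 and -0.32. On the other side, Ano1, a chloride channel gene, had 0.18, -1.14 and -3.02, a mean of -1.33 ± 1.61. A probe with no gene name, at -87.93 kb, had 1.68, 0.66 and 2.23, a mean of 1.52 ± 0.80. Cttn, Ppfia1, Fadd and 1810010D01Rik, farther out, had -0.10, -0.04, -0.50 and -0.37. Of the tested probes, Fgf4 and the unnamed one thus had a mean above 0 and the others one below 0.

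**Figure D3:**
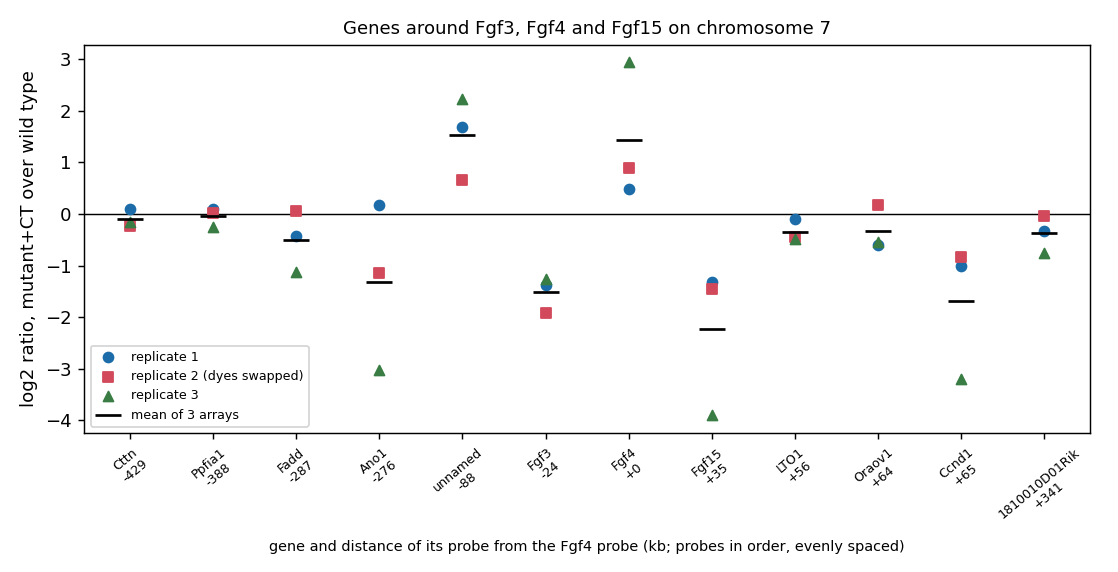
Log2 ratio of mutant+CT over wild type (y axis) for tested probes around Fgf4 on chromosome 7, in order along the chromosome with the distance from the Fgf4 probe in kb (x axis), a marker per array and a line for the mean. Fgf4 and the unnamed probe are above 0 on every array. Fgf3, Fgf15 and Ccnd1 are below 0 on every array, as are, with smaller mean ratios, the probe labelled LTO1 and 1810010D01Rik.

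The promoters of Fgf3 and Fgf4 are set side by side because these neighbours on 1 strand differed in opposite directions. The 250 bases before each gene start are printed from RefSeq (GRCm38.p6, plus strand), at chr7:144838362-144838611 for Fgf3 and chr7:144861136-144861385 for Fgf4. Capitals mark the motifs GGGCGG (a GC box) and CCAAT, searched on both strands, so that CCAAT on the minus strand reads as its reverse complement; TATAAA was also searched.
Fgf3 promoter: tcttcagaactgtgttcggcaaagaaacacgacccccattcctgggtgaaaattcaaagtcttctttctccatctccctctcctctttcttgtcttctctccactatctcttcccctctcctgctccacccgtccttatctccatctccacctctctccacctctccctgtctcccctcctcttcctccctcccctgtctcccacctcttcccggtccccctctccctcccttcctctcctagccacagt
Fgf4 promoter: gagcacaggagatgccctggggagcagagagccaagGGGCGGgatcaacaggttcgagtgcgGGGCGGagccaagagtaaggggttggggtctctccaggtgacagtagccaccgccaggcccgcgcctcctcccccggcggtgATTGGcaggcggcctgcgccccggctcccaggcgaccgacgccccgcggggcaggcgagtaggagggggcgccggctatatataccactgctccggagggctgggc
The Fgf4 window held 2 GC boxes and 1 CCAAT and the Fgf3 window neither, and the exact letters TATAAA were in neither window. Variants of TATAAA were not searched, so the stretch tatatata near the end of the Fgf4 window was not counted. Of the 32851 RefSeq promoter windows of that length, 32.7% held GGGCGG, 33.8% CCAAT and 12.4% TATAAA. Among the 26 of the 35 genes matched in that table, GGGCGG was in 17, CCAAT in 11 and TATAAA in 2. A gene was counted if any of its windows held the motif. These counts of genes are therefore not comparable with the shares of windows. Fgf15 was not matched.

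Fgf10, the mesenchymal ligand that drives limb and lung budding, was the only 1 of the 28 genes whose mutant+CT levels all lay below the wild-type levels. They were 9.40, 7.76 and 8.84 in mutant+CT and 9.73, 10.20 and 9.49 in wild type. Of the 28 genes this 1, or 3.57%, lay wholly below wild type (background 6.57%), and its ratios of -0.33, -2.44 and -0.65 had a mean of -1.14 ± 1.14 (SD, n = 3) and an adjusted p of 0.325 in limma. The mean was -0.49 without replicate 2. Mesenchyme markers, of which 10 of 10 were tested, had medians of 3.85, -1.66 and -0.53, so on replicate 1 they were high in mutant+CT while Fgf10 was not.

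Fgf7, another ligand that mesenchyme sends to epithelium, had ratios of 0.23, 0.10 and 2.06, a mean of 0.80 ± 1.09 and an adjusted p of 0.468. Its mean was 0.17 without replicate 3. Of the FGF7 subfamily, Fgf3, Fgf7 and Fgf10 were tested and Fgf22 was not.

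Fgf8 and Fgf17 of the FGF8 subfamily, which shape the boundary of midbrain and hindbrain, were lower on every array. Fgf8 had levels of 11.42, 8.80 and 8.98 in mutant+CT and 11.48, 9.63 and 11.43 in wild type. Only replicate 3 showed a wide gap, and the groups overlapped. The ratios were -0.05, -0.83 and -2.45, a mean of -1.11 ± 1.22 (SD, n = 3), with an adjusted p of 0.358, and the mean was -0.44 without replicate 3. A second Fgf8 probe had -0.35, -0.22 and -1.82, a mean of -0.80, so both probes were lowest on replicate 3. The 2 probes share a gene but not their letters, as their first 30 bases show, and lie on the minus strand at chr19:45811668-45811727 and chr19:45811355-45811414 (mm9).
Fgf8 probe A_55_P2108109: tggagaacaactacacggcgctgcagaacg
Fgf8 probe A_55_P2101508: aaggggaggggctggggagctgccttctag
Fgf17 had ratios of -0.79, -0.26 and -0.35, a mean of -0.47 ± 0.28 and an adjusted p of 0.415. Markers of that boundary, 7 of 8 of them tested, had medians of -0.55, -0.06 and -0.22, and 3 of the 7 were lower on every array. Their lowest median was on replicate 1, where the first Fgf8 probe was near 0.

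Fgf18, the third of that subfamily and a regulator of bone and lung growth, had ratios of -0.63, 0.95 and 1.00, a mean of 0.44. Its second probe gave 0.39, but shares 26 bases with the first, printed in capitals at the start of the probe, so their agreement is no separate measurement.
Fgf18 probe A_55_P2211319: ACGAGGAAACTGCGAGAAACCAAAGTcctt

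Fgf1, which binds all 4 signalling receptors, was higher in mutant+CT without overlap of the groups. Its level was 8.69, 8.12 and 9.31 in mutant+CT and 7.43, 7.70 and 8.02 in wild type. With Spred2 it made 2 of 28 genes, or 7.14%, that lay wholly above wild type (background 9.5%). The ratios were 1.25, 0.42 and 1.29, a mean of 0.99 ± 0.50 (SD, n = 3), or 1.98-fold, with an interval of 0.29 to 1.69, an unadjusted p of 0.0144 and an adjusted p of 0.197 in limma. A second Fgf1 probe had 0.045 and was above background on 2 of 3 arrays in each condition, so it was not tested.

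Fgf13, one of the intracellular FGFs that bind sodium channels and do not act through receptors, had levels of 7.17, 6.56 and 6.54 in mutant+CT and 7.86, 7.10 and 8.50 in wild type. The mutant+CT values were lower within each array but reached into the wild-type range. Its ratios were -0.69, -0.53 and -1.96, a mean of -1.06 ± 0.78 (SD, n = 3), with an unadjusted p of 0.0272 and an adjusted p of 0.247. A second probe gave -0.22, with the same sign on every array, and the mean of the first was -0.61 without replicate 3. Fgf11, of the same group, had -0.48, 0.24 and -0.64.

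The other tested FGFs lay near 0 on average. Fgf5, a ligand of the primed epiblast, had 0.76, -0.48 and 0.25, Fgf9, a ligand of epithelia and mesothelium, had 1.20, 0.11 and -1.12, and Fgf23, a hormone that lowers phosphate, had 0.56, 0.19 and 0.15. Fgf23 was above 0 on each array, with a mean of 0.30 ± 0.22 and an adjusted p of 0.598. The second Fgf23 probe was not well above background on any array in either condition. The tested Fgf23 probe begins with a repeat of CA, and whether it also binds other transcripts was not tested. The 7 FGFs not tested were Fgf2, Fgf12, Fgf14, Fgf16, Fgf20, Fgf21 and Fgf22. No probe of Fgf2 or Fgf16 was well above background on any array, Fgf21 was so on 1 array in wild type and none in mutant+CT, and probes of Fgf12, Fgf14, Fgf20 and Fgf22 reached it on at most 2 arrays in either condition.

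The receptors showed no shared direction. Fgfr1, the receptor most used by stem cells and epiblast, had 1.03, -0.80 and -0.30 at its brightest probe, a mean of -0.02 ± 0.95, and 2 further probes had -0.15 and -0.55. Its sign was therefore not settled: it was 0.36 without replicate 2 and -0.55 without replicate 1. Fgfr2, a receptor of epithelia, had -0.29, 0.35 and -1.21, a mean of -0.38, and -0.37 at a second probe. These Fgfr2 probes overlap, at chr7:137307473-137307532 and chr7:137307455-137307514 (mm9), so their agreement is no separate measurement. Fgfr3 had a mean of -0.41 and -0.13 at its second kept probe, and Fgfr4 a mean of 0.40 and 0.10 at its second. Fgfrl1, which lacks the kinase domain, had 0.17, 0.48 and -0.93. None of the 5 was higher or lower on every array, the intervals of all 5 included 0, and their smallest adjusted p was 0.608. The widest interval, that of Fgfr1, ran from -1.03 to 0.98, so differences of up to about 2-fold in either direction lay within it. Other intervals reached farther on 1 side, to -1.27 for Fgfr2, -1.31 for Fgfr3 and 1.19 for Fgfr4.

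Of the 3 ETS factors that report ERK activity, Etv5 was higher in mutant+CT on every array. Its probe lies on the minus strand at chr16:22381387-22381446 (mm9), and its first 30 bases are printed as those of the 1 ETS gene that was higher on every array.
Etv5 probe A_55_P2037454: tgcaccctgccgagctgcgtatattctgta
The level was 13.39, 14.73 and 14.95 in mutant+CT and 12.99, 13.12 and 13.88 in wild type. Mutant+CT was higher within each array, while its replicate 1 value lay within the wild-type range. The ratios were 0.39, 1.61 and 1.07, a mean of 1.02 ± 0.61 (SD, n = 3), or 2.03-fold, with an interval of 0.26 to 1.79, an unadjusted p of 0.0182 and an adjusted p of 0.214. Etv4 had 0.69, 2.19 and -0.35, a mean of 0.84 ± 1.28, and 0.50 at its second probe. Etv1 had 1.42, 1.35 and -0.38, a mean of 0.80 ± 1.02. Both were above 0 on replicates 1 and 2 and below 0 on replicate 3, the array with the highest Fgf4 ratio. On that array Etv5 had 1.07, and a link of these ETS genes to Fgf4 was not tested. The mean of Etv4 was 0.17 without replicate 2.

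The inhibitors of the cascade had a median of -0.17 over 6 genes. Spred2, which blocks activation of Raf, was above wild type without overlap, with levels of 6.95, 7.13 and 7.09 in mutant+CT and 6.59, 6.57 and 6.38 in wild type. All of these are dim. The ratios were 0.36, 0.56 and 0.71, a mean of 0.54 ± 0.17, with an unadjusted p of 0.0538 and an adjusted p of 0.327, and the mean was 1.42 on Agilent's background-subtracted signals. Spred1 had 0.96, -0.94 and -0.92 at the brightest probe with a value on all 3 arrays, and 1 further probe had the same mean, -0.30. A brighter probe lacked a value on replicate 1 and was not tested. Its ratios were 0.25 on replicate 2, opposite in sign to the other probes there, and -1.55 on replicate 3. Dusp6, the phosphatase of ERK, had 0.56, 0.03 and -0.83. Spry1, a Sprouty inhibitor, had 0.15, -0.48 and -0.42, a mean of -0.25, and Spry2 had -0.27, 0.27 and -1.12, a mean of -0.37. Their 95% intervals included 0, and without replicate 3 the mean of Spry2 was -0.0031.

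Spry4, the remaining Sprouty gene, had the widest spread of the 28. Its level was 7.85, 6.95 and 9.35 in mutant+CT and 6.54, 8.96 and 6.87 in wild type, so mutant+CT was higher on replicates 1 and 3 and lower on replicate 2. The ratios were 1.31, -2.01 and 2.48, a mean of 0.59 ± 2.33 (SD, n = 3). Read by dye, the ratio of red over green was -1.31, -2.01 and -2.48, below -1 on each array. Among all genes, 172 had red at least 2-fold under green on every array, a background of 0.844%, and of the 28 genes Spry4 alone, or 3.57%. The number with red at least 2-fold over green was 7 of all genes (0.0343%) and 0 of the 28. Since replicate 2 alone had the swapped dyes, a dye effect and a difference of that replicate cannot be told apart for this gene.

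**Figure D4:**
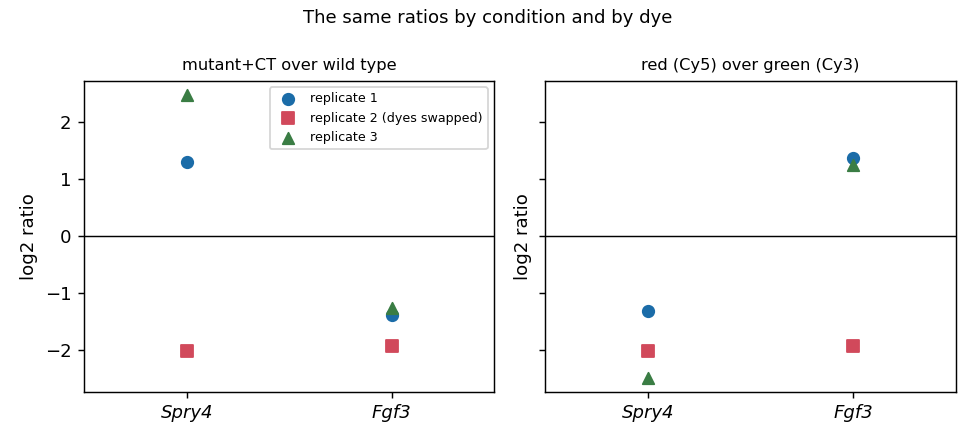
Log2 ratio (y axis) of Spry4 and Fgf3 (x axis) on the 3 arrays, as mutant+CT over wild type on the left and as red over green on the right. Spry4 keeps its sign by dye and turns it by condition, while Fgf3 keeps its sign by condition.

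Other genes of the pathway were taken from 3 lists, of which 0 genes passed an adjusted p of 0.05. Of 22 co-receptor and heparan sulfate genes 20 were tested, with a median of -0.23, and 3 were higher and 4 lower at an unadjusted p under 0.05 (background 9.04% and 6.7%). Fgfbp3, whose product releases FGFs from the matrix, had -3.31, -2.71 and -5.01, a mean of -3.68 ± 1.19 and the only adjusted p under 0.1 in these lists, 0.0843. Flrt3, a membrane partner of FGF receptors, had -1.17 ± 0.35 (adjusted p = 0.132). In the other direction Gpc3, a glypican, had 1.77 ± 0.93 (adjusted p = 0.144) and Ndst1, a sulfotransferase of heparan sulfate synthesis, 1.17 ± 0.74 (adjusted p = 0.208).

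Inside the cell the differences were smaller. Of 20 adaptor and kinase genes 17 were tested, with a median of -0.21, and 2 were higher and 1 lower at an unadjusted p under 0.05, against the same backgrounds. The ubiquitin ligase gene Cbl had 1.44 ± 0.88 (adjusted p = 0.181) and the adaptor gene Grb2 0.69 ± 0.43 (adjusted p = 0.298), while Nras had -0.63 ± 0.16 (adjusted p = 0.268) and Map2k2, which encodes MEK2, -0.63 ± 0.55 (adjusted p = 0.379). Of 14 further feedback and ERK-response genes, all tested, none had an unadjusted p under 0.05, and the median was -0.01. Those with the smallest p were Phlda1 (0.49 ± 0.41) and Ier3 (1.16 ± 1.98) above 0, and Il17rd (-0.37 ± 0.39) and Spred3 (-0.45 ± 0.74) below 0.

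**Figure D5:**
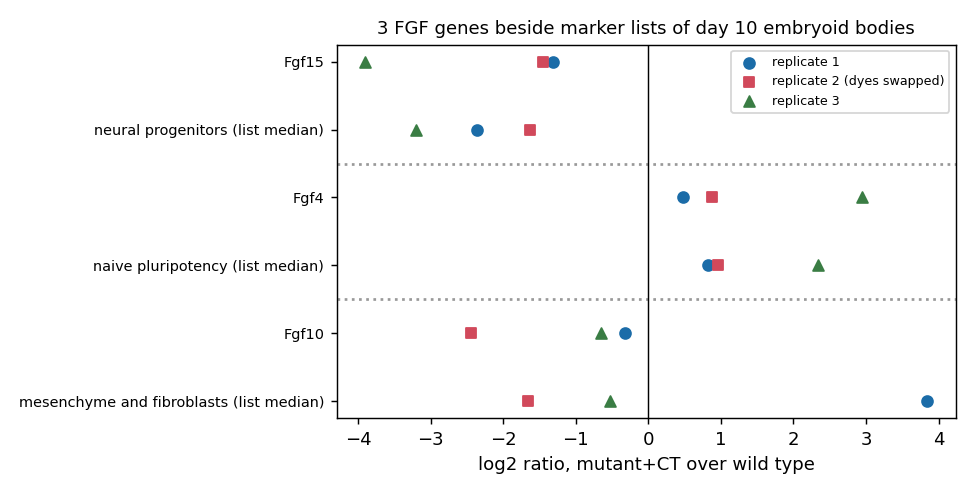
Log2 ratio of mutant+CT over wild type (x axis) on the 3 arrays for Fgf15, Fgf4 and Fgf10, each above the median of a marker list (y axis). Fgf15 and the neural list are below 0 on every array and Fgf4 and the naive list above 0, while Fgf10 and the mesenchyme list differ in sign on replicate 1.

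Marker lists of other cell types also differed between the arrays. Cardiomyocyte markers, 9 of 10 of them tested, had medians of 3.78, -0.87 and -0.94, and primitive streak markers, also 9 of 10, had 1.48, -0.01 and -0.15, so replicate 1 stood apart in mesodermal genes. Visceral endoderm markers had a median of 1.12 with 7 of 8 higher on every array, and primitive and parietal endoderm markers -1.27 with 7 of 8 lower. The part of any of these cell types in the FGF ratios was not tested.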

How the data were processed

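The deposited scanner files give each spot's intensity, as mean brightness and median local background in green and red, extracted from the array scans by Agilent Feature Extraction (version 10.7.3.1, named in the file headers) without normalization. Also in them are mm9 probe coordinates, Agilent's background-subtracted and dye-normalized signals, and a log10 ratio. That log10 ratio, red over green, was computed from the processed signals per the file headers and used here only to check direction. A deposited table of log2 ratios served as an alternative; it was made with limma per the submitters' processing notes, and its other steps are not given in the sources used here. Its column medians are -0.02, 0.01 and -0.02, it reads mutant+CT over wild type, and it correlated at 0.994, 0.996 and 0.998 with the ratios computed here.

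Intensities were corrected with normexp (offset 50) and loess within arrays in limma 3.58.1 (R 4.3.3). Control spots had weight 0, and outlier spots (454, 234 and 507) were missing. All ratios were turned one way. Probes well above background on all 3 arrays in either condition, and with a ratio on every array, were kept (26318 of 39429). The brightest kept probe stood for its gene. Levels are log2 intensities after loess and Aquantile. Limma's moderated test compared the mean ratio with 0, with Benjamini-Hochberg adjustment over 20390 genes. The number of arrays limits the precision. The procedure was tested on simulated data. Genes were named by RefSeq accession where matched (30708 of 43020 spots). The 35 genes and all lists were chosen with earlier results of these data known. By rule, full values are given for genes past 2-fold on each array, with an unadjusted p under 0.05, or with disagreeing probes, and in each pathway list for the 2 genes of smallest p each way. The full values of Fgf8, Fgf10, Spred2 and Spry4, and the neighbours on chromosome 7, were chosen after their values were seen.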

Additional observations from a re-analysis of the deposited data

How the results depend on the processing

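No setting tried called any of the 35 genes at an adjusted p under 0.05, and at 0.1 the fit called 1 lower gene, Fgf3. Over all genes the count of 0 became 463 when both channels were fitted separately, 290 on Agilent's processed signals, 12 with the filter in both conditions, 176 with a robust, trended prior and 159 without replicate 1, while it was 0 without replicate 2 or 3 and with a dye term. Of 448 ratios recomputed for the 28 genes, 434 kept their direction and 14, from 9 genes, reversed. Several settings, such as Aquantile, other background filters, the trended prior and separate channels, left these ratios unchanged. The 434 therefore overstates how often direction was put to a check. Fgf3 ranged from -2.77 to -1.20 with adjusted p of 0.0514 to 0.245, and Fgf15 from -2.68 to -1.38 with 0.0838 to 0.317. The count of genes at least 2-fold lower on every array was 1 without background subtraction, Fgf15, and 3 on Agilent's processed signals, which added Fgf13 to Fgf3 and Fgf15. The count of those 2-fold higher was 1 on Agilent's processed signals, Spred2, and from 1 to 2 over pairs of arrays: Etv5 without replicate 1, Fgf1 and Spry4 without replicate 2, and Etv1 without replicate 3. With a dye term the median of feedback and target genes was -0.052, Fgfrl1 was 0.049 and Spry4 was -0.058. With arrays scaled to one spread Fgfr1 was 0.022.

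Leaving out 1 array moved the receptor median between -0.43 and 0.11 and put that of feedback and target genes between 0.17 and 0.29. It reversed Dusp6 (-0.40 to 0.29), Fgf5 (-0.12 to 0.51), Fgf9 (-0.51 to 0.66), Fgfr1 (-0.55 to 0.36), Fgfr2 (-0.75 to 0.033), Fgfr3 (-0.73 to 0.031), Fgfrl1 (-0.38 to 0.32), Spred1 (-0.93 to 0.019) and Spry4 (-0.35 to 1.90). The causes were not tested. The test of ratios within arrays is itself the paired analysis. Dim probes, such as those of Fgf3, Fgf13 and Spred2, limit the sizes given for them, and 7 FGF genes were too dim to test.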
